A study of Mus musculus with 6 samples.

Results

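The S100 proteins and galectins of mouse embryonic stem cells (mESC) were examined in 9 genes of the 42450 listed in the deposited table. These were 7 S100 genes (S100a1, S100a4, S100a6, S100a10, S100a11, S100a13 and S100a16) and 2 galectin genes (Lgals1 and Lgals3), which encode galectin-1 and galectin-3. They were chosen by name and with their fold changes between WT and Srrm2+/- in these libraries already known. Their differences between the groups are therefore given as a description, with no p-value.

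Total RNA was sequenced from the male mESC line E14tg2a.4 (WT, 3 libraries) and from a derivative with a gene-trap truncation in 1 allele of Srrm2 (Srrm2+/-, 3 libraries). Srrm2 encodes a splicing factor of nuclear speckles, and the comparison asks how its reduced dose changes gene expression. Both lines were kept on gelatin with LIF and moved to serum-free medium with LIF before collection. The Srrm2+/- line is 1 gene-trap clone and its stocks were frozen at lower passage numbers than those of WT, so genotype, clone and passage cannot be told apart.

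S100 proteins are small dimeric proteins that bind calcium through EF-hand motifs and then expose a surface for target proteins, among them annexins, cytoskeletal proteins and receptors. S100a10 is an exception that holds its open form without calcium and forms a complex with annexin A2 at membranes. Galectins are lectins that bind β-galactosides on glycoproteins, and they act outside the cell, in the cytoplasm and in the nucleus, where galectin-1 and galectin-3 have been linked to splicing.

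Library totals lay between 54151532 and 69933465 estimated counts, and 18905 genes passed the filter on low counts and were tested. Srrm2, which checks the labels, was at 91.2, 98.3 and 97.7 CPM (counts scaled by TMM-adjusted library size) in WT and at 62.3, 56.2 and 59.6 CPM in Srrm2+/-, a log2 difference of -0.69 ± 0.05 (adjusted p = 2.38e-05). Of 8 pluripotent cell markers, 6 were called lower, against 11.7% of all tested genes. The list summed to 5129 to 5305 CPM in WT and 4421 to 4541 CPM in Srrm2+/-. A gene was called where the adjusted p of the edgeR fit over all tested genes was under 0.05. Below, ± gives the SD over the 3 libraries of a group (n = 3) beside a level and the SE beside a log2 difference (log2 fold change) of Srrm2+/- against WT, and each adjusted p comes from that edgeR fit.

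Most members lie on chromosome 3 in a pair of groups (build GRCm38). S100a1 (90511034 to 90514392, minus strand), S100a13 (90514435 to 90524581), S100a16 (90537254 to 90543151), S100a4 (90603771 to 90606045) and S100a6 (90612882 to 90624181), the last 4 on the plus strand, share a cluster in which the starts of S100a1 and S100a6 are 98.5 kb apart. S100a11 (93520488 to 93526287) and S100a10 (93555080 to 93564643), both on the plus strand, lie elsewhere on the chromosome with 34.6 kb between their starts. Lgals3 is on chromosome 14 (47367751 to 47386160, plus strand) and Lgals1 on chromosome 15 (78926725 to 78930465, plus strand).

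RefSeq promoter windows (GRCm38.p6, 250 bases before to 50 after the start) matched 7 of the 9 members, and 4 are printed, to show the gene with the largest difference, a gene with AP-1 letters, the head-to-head pair and a galectin. S100a6 (chr3:90612644-90612943, plus strand) had the largest fold difference, and no capitals are used in it. S100a11 (chr3:93520246-93520545, plus strand) holds AP-1 and GC box letters, which are in capitals. S100a13 (chr3:90514185-90514484, plus strand) starts head to head with S100a1, and capitals mark the part shared with the S100a1 window. Lgals3 (chr14:47373610-47373909, plus strand) has GC box letters in capitals, and its RefSeq start lies inside the gene as annotated by GENCODE.
S100a6: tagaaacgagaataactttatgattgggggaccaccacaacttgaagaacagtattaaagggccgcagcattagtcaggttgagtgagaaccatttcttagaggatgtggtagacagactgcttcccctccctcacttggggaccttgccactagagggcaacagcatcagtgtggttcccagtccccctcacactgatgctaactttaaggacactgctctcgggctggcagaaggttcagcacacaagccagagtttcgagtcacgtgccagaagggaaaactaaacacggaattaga
S100a11: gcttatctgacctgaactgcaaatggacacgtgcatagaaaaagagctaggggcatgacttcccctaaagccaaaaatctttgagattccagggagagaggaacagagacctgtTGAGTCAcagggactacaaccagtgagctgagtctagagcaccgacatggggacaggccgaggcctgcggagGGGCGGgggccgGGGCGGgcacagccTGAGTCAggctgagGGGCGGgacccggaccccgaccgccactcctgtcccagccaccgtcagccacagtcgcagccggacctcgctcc
S100a13: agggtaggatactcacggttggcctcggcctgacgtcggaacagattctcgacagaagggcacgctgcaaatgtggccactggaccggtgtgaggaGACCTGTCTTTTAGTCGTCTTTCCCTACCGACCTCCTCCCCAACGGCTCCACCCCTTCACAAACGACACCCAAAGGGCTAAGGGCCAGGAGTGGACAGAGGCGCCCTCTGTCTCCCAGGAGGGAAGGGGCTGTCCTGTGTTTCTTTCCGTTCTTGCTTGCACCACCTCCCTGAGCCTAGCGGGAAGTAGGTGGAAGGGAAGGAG
Lgals3: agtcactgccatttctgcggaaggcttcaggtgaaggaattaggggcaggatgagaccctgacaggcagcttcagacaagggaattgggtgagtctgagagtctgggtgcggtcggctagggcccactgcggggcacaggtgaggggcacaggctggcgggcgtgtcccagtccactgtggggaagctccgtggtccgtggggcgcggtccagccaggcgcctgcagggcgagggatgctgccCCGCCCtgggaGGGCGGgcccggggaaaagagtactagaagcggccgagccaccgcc

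The windows were searched on both strands for 6 sets of letters. The AP-1 letters were TGANTCA, in which N is any base. A GC box was read as GGGCGG, the letters that the factor Sp1 is known to bind. For the TATA box of core promoters the letters TATAAA were used. Those of the TEAD factors, which act with YAP, were GGAATG. The cyclic AMP response element (CRE) was searched as TGACGTCA, and the CArG box of serum response factor by its usual form. S100a11 held AP-1 letters at positions -136 and -38 from its start and GC boxes at -64, -52 and -24, whereas Lgals3 held GC boxes at -7 and 5. The TATA box letters were found in S100a4 at -31. One of the S100a16 windows held AP-1 letters at -192 and a GC box at -30. The windows of S100a6, S100a1 and S100a13 held none of the 6 sets of letters. Among 32851 RefSeq windows, 7.81% hold the AP-1 letters, 35.7% the GC box, 13.6% the TATA box, 14.7% the TEAD letters, 1.79% the CRE and 1.63% the CArG box. CpG pairs numbered 18 in Lgals3, 15 in S100a11, 14 in S100a13, 11 in S100a1, 6 in S100a6 and 2 in S100a4, against a median of 7 over all windows. These matches are a description of the letters, not of binding sites.

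Of the 9 members, 8 passed the filter and 5 of these were called higher in Srrm2+/-, namely S100a6, Lgals1, S100a11, S100a13 and S100a10. None was called lower in this fit, and S100a1, S100a16 and Lgals3 were not called. Over all tested genes 25.3% were called in either direction, 13.6% higher and 11.7% lower. The values of the 3 libraries of each group did not overlap for 5 of the 8 tested members, against 41.4% of all tested genes in either direction and 21.4% with Srrm2+/- higher. Since this contrast was in view when the genes were chosen, nothing is read from these shares. The median log2 difference was 0.404 over the 8 members and -0.00254 over all tested genes. In bulk RNA, more cells that express a gene and more RNA per cell cannot be told apart.

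**Figure D1:**
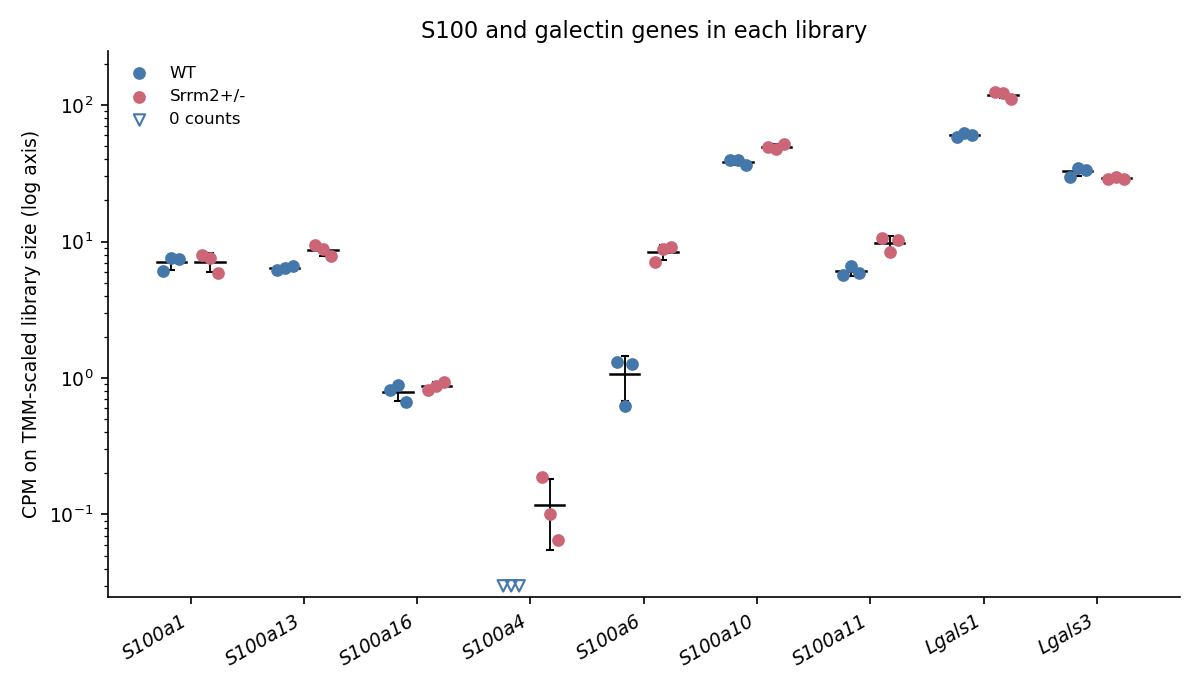
Each point is 1 library, in CPM on TMM-scaled library size (log axis), with WT in blue and Srrm2+/- in red. Bars give the mean and error bars the SD over 3 libraries, and open triangles mark 0 counts, which were found for S100a4 in all 3 WT libraries. Among the tested members the groups are apart for S100a13, S100a6, S100a10, S100a11 and Lgals1 and share a range for S100a1, S100a16 and Lgals3. S100a4, not tested, is apart too, at very low counts.

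S100a6 (ENSMUSG00000001025), also called calcyclin, binds the Siah1-interacting protein CacyBP and annexins. It was at 1.32, 0.623 and 1.27 CPM in WT and at 7.11, 8.82 and 9.13 CPM in Srrm2+/-. The lowest Srrm2+/- library was well above the highest WT library. This was the largest difference among the tested members, a log2 difference of 2.97 ± 0.24, and it stayed between 2.69 and 3.15 over the 14 alternative settings. In WT its counts were low, 73, 36 and 68, and its coefficient of variation was 36.2%, against 13.0% in Srrm2+/-.

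S100a4, a neighbour of S100a6 that binds non-muscle myosin, had 0 counts in every WT library and 13, 7 and 4 counts in Srrm2+/-. It was present in each Srrm2+/- library and did not pass the filter, so it was not tested. With the filter lowered to 1 count over all libraries it entered the test through its Srrm2+/- counts alone and was called higher. Nothing is read from that call, and the size of its fitted difference depends on the prior count and is not given. Against a floor of 3 counts per library in WT (0.0540 CPM on average), its Srrm2+/- mean of 0.118 ± 0.0632 CPM was 2.19-fold higher. That fold leaves out the spread of the mean, and the lowest Srrm2+/- library, at 0.0648 CPM, was close to the floor. Of its 31-base words, 49.2% also occur in Gm42674, an overlapping gene on the same strand that is not analysed here. How reads were shared out between S100a4 and Gm42674 was therefore not checked.

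S100a11 (ENSMUSG00000027907) is a partner of annexin A1. It was at 5.69, 6.64 and 5.84 CPM in WT and at 10.7, 8.38 and 10.2 CPM in Srrm2+/-. All 3 Srrm2+/- libraries were above the WT libraries, with a log2 difference of 0.68 ± 0.11 (0.62 to 0.78 over the alternatives). Nearly as much of its sequence is shared as is its own. Of its 31-base words 48.9% occur in other genes, most of them (47.0% of all) in Gm12854, a pseudogene on chromosome 4 (116067268 to 116067564) that was listed at 0.144 to 0.305 CPM. With the counts of both summed, an alternative chosen after seeing the data, the log2 difference was 0.67 ± 0.11.

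S100a10 (ENSMUSG00000041959), the annexin A2 partner also known as p11, was at 39.5, 39.3 and 36.2 CPM in WT and at 49.3, 47.3 and 52.2 CPM in Srrm2+/-. The groups did not overlap, and the log2 difference was 0.37 ± 0.06 (0.33 to 0.41 over the alternatives). It was the smallest difference among the 5 called members. Its coefficients of variation were also low, 4.93% in WT and 5.03% in Srrm2+/-.

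S100a13 and S100a1 form a head-to-head pair whose annotated genes are 0.043 kb apart. Their RefSeq starts are 105 bases apart, so that their promoter windows share 204 of 300 bases, shown in capitals above. S100a13 (ENSMUSG00000042312), which takes part in the non-classical release of FGF1, was at 6.15, 6.44 and 6.65 CPM in WT and at 9.45, 8.79 and 7.80 CPM in Srrm2+/-. All Srrm2+/- libraries were higher, with a log2 difference of 0.44 ± 0.10 (0.37 to 0.51 over the alternatives). S100a1 (ENSMUSG00000044080), known for its action on ryanodine receptors in muscle, was at 6.09, 7.63 and 7.39 CPM in WT and at 7.90, 7.57 and 5.85 CPM in Srrm2+/-. Its groups overlapped fully, the lowest library being an Srrm2+/- one and the highest another Srrm2+/- one. Its log2 difference of 0.02 ± 0.14 changed sign without WT replicate 1 (-0.0779), Srrm2+/- replicate 1 (-0.0661) or Srrm2+/- replicate 2 (-0.0299).

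S100a16 (ENSMUSG00000074457), a widely expressed S100 gene 22.8 kb from S100a13 by their starts, was low in both groups. It was at 0.811, 0.882 and 0.672 CPM in WT and at 0.824, 0.870 and 0.940 CPM in Srrm2+/-, and the groups overlapped. The log2 difference was 0.15 ± 0.20.

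Lgals1 (ENSMUSG00000068220), which encodes the dimeric galectin-1, was the most abundant member. It was at 58.5, 62.1 and 60.2 CPM in WT and at 123.7, 123.0 and 111.4 CPM in Srrm2+/-. The libraries of a group lay close together and the groups far apart, with a fold of 1.98 and a log2 difference of 0.99 ± 0.05 (0.96 to 1.03 over the alternatives). The coefficient of variation was 3.06% in WT and 5.79% in Srrm2+/-.

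Lgals3 (ENSMUSG00000050335) encodes galectin-3, which joins a lectin domain to a long tail that lets it form oligomers. It was at 29.8, 34.9 and 33.4 CPM in WT and at 28.6, 29.9 and 28.6 CPM in Srrm2+/-. One Srrm2+/- library lay just above the lowest WT library. The log2 difference was -0.17 ± 0.06 (-0.23 to -0.12 over the alternatives), with the sign opposite to that of Lgals1. It was called lower under 1 alternative, without WT replicate 1, where the log2 difference was -0.23.

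Levels of different genes were compared as CPM per kb of exon, the length being that of all annotated exons of a gene joined together. The order of genes rests on these lengths. In WT the order was Lgals1 (66.7 ± 2.04 CPM per kb), S100a10 (31.6 ± 1.56), Lgals3 (17.6 ± 1.40), S100a11 (11.9 ± 0.998), S100a1 (10.1 ± 1.19), S100a13 (8.96 ± 0.352), S100a6 (0.782 ± 0.283), S100a16 (0.488 ± 0.0661) and S100a4 at 0. Ranges of mean ± SD overlapped for S100a11 and S100a1, S100a1 and S100a13, and S100a6 and S100a16, which are next to each other in this order. In Srrm2+/- S100a11 (19.1 ± 2.35 CPM per kb) stood above Lgals3 (15.6 ± 0.419). S100a13 (12.1 ± 1.16) stood above S100a1 (10.2 ± 1.59), with ranges of mean ± SD that overlapped. S100a6 (6.11 ± 0.794 CPM per kb) came closer to S100a1, while Lgals1 (132.2 ± 7.65) and S100a10 (40.9 ± 2.06) stayed at the head.

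Summed over the 9 members, the level was 152.7 ± 5.42 CPM in the WT libraries against 232.9 ± 5.92 CPM in Srrm2+/-. Lgals1 made up 39.5 ± 0.262% of that sum in WT and 51.2 ± 1.73% in Srrm2+/-. The share of Lgals3 was 21.4 ± 1.07% in WT and 12.5 ± 0.402% in Srrm2+/-, that of S100a10 25.1 ± 1.47% and 21.3 ± 1.56%, and that of S100a6 0.707 ± 0.273% and 3.59 ± 0.539%. The sum was thus carried by Lgals1, S100a10 and Lgals3 in both groups.

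The members were also set against the gene each is paired with, as ratios of CPM per kb of exon within a library. Lgals1 over Lgals3 was 4.04, 3.67 and 3.71 in WT and 8.92, 8.45 and 8.003 in Srrm2+/-. S100a13 over S100a1 was 0.979, 0.819 and 0.873 in WT and 1.16, 1.13 and 1.29 in Srrm2+/-. Which gene of this pair is higher rests on the exon lengths used. In CPM, S100a13 (6.15) was already just above S100a1 (6.09) in WT replicate 1. S100a10 over Anxa2 was 25.98, 30.8 and 21.7 in WT and 3.71, 3.55 and 3.98 in Srrm2+/-. The RNA of the S100 partner exceeded that of the annexin in every library, by a much smaller margin in Srrm2+/-. S100a11 over Anxa1 was 10.3, 14.5 and 22.02 in WT and 2.51, 1.46 and 2.28 in Srrm2+/-. This ratio rests on exon lengths of 511 and 2911 bases. In CPM not divided by length, Anxa1 (24.2, 32.8 and 25.5) was above S100a11 (10.7, 8.38 and 10.2) in each Srrm2+/- library. All 4 ratios were apart between the groups, and in the last 2 both genes were higher in Srrm2+/-, the annexin by more.

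**Figure D2:**
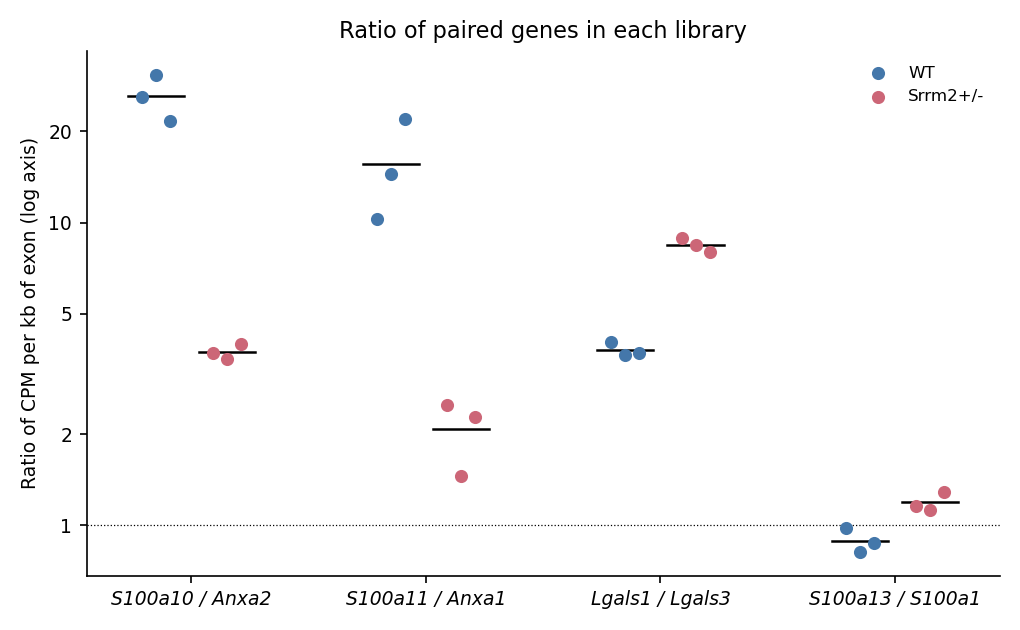
Each point is the ratio of a pair of genes within 1 library, in CPM per kb of exon (log axis), with WT in blue, Srrm2+/- in red, bars at the mean of 3 libraries and a dotted line at 1. Where a ratio lies against 1 depends on the exon lengths used. The mean of S100a10 over Anxa2 was 26.2 in WT and 3.74 in Srrm2+/-, that of S100a11 over Anxa1 15.6 and 2.08, that of Lgals1 over Lgals3 3.80 and 8.46, and that of S100a13 over S100a1 0.890 and 1.19.

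Of 10 other S100 genes on the list 9 were in the table, 1 (S100a8) had 0 counts in every library, and none passed the filter. S100a2 (ENSMUSG00000094018), not on the list, also had 0 counts in every library. The summed level of those on the list was 0.138 to 0.198 CPM in WT and 0.195 to 0.535 CPM in Srrm2+/-. S100a9, like S100a8 a marker of neutrophils, was at 0 in 5 of 6 libraries, and S100b, a marker of glia, was at 0 to 0.0580 CPM. Of the fused-type relatives, which carry an S100 domain on a long repeat protein of skin and hair, 6 of 7 were in the table and 1 was tested. This was Tchh, trichohyalin, which rose from 0.0715 ± 0.0340 to 0.399 ± 0.0561 CPM, a log2 difference of 2.44 ± 0.43 (adjusted p = 0.00353).

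Of the other galectin genes 8 of 9 were in the table, 5 were tested and 1 (20%) was called, against 25.3% of all tested genes. Lgals4, a tandem-repeat galectin of the gut, was at 0.865, 0.917 and 1.08 CPM in WT and at 0.361, 0.653 and 0.454 CPM in Srrm2+/-, and fell by 0.96 ± 0.27 on the log2 scale (adjusted p = 0.0293). The call was lost without WT replicate 2 (adjusted p = 0.0681), WT replicate 3 (0.0936), Srrm2+/- replicate 1 (0.0919) or Srrm2+/- replicate 3 (0.0948). Lgals8, also of the tandem-repeat type, had a WT level of 10.9 ± 0.877 CPM against 9.56 ± 0.354 CPM, a log2 difference of -0.19 ± 0.08 (adjusted p = 0.124). Lgals9 was at 5.57 ± 0.483 and 6.06 ± 0.922 CPM, a log2 difference of 0.12 ± 0.13 (adjusted p = 0.560). Lgalsl, a galectin-like gene, was at 26.6 ± 2.09 and 27.5 ± 2.29 CPM, a log2 difference of 0.05 ± 0.08 (adjusted p = 0.714). The sign of Lgals9 turned without Srrm2+/- replicate 3 (-0.00889), and that of Lgalsl without WT replicate 2 (-0.00791) or Srrm2+/- replicate 1 (-0.0156). Lgals7 was close to 0, with a log2 difference of 0.45 ± 0.39 (adjusted p = 0.458). The median of the 5 was 0.0473.

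The partners of S100 proteins were read from a list of 23 genes, all of them tested. Of these 9 (39.1%) were called, 7 higher and 2 lower, against 25.3% of all tested genes, and their median log2 difference was 0.0775. This list, like those of the galectins and of their ligands, was chosen with earlier results of these data known, so its share is a description. Anxa1, encoding annexin A1, rose from 2.43 ± 0.836 to 27.5 ± 4.64 CPM, a log2 difference of 3.50 ± 0.22 (adjusted p = 9.71e-06). Anxa2, the partner of S100a10, rose from 4.58 ± 0.610 to 40.8 ± 0.330 CPM, a log2 difference of 3.16 ± 0.09 (adjusted p = 1.32e-07). Ahnak, a giant scaffold protein held by the S100a10 and annexin A2 complex, rose by 1.18 ± 0.04 on the log2 scale (adjusted p = 4.55e-07). Plat, the tissue plasminogen activator that this complex binds at the cell surface, was low in WT and rose by 1.83 ± 0.33 (adjusted p = 0.00367). Myh9, the non-muscle myosin heavy chain bound by S100a4, rose by 0.64 ± 0.04 (adjusted p = 1.95e-05). The other called rises were Anxa6 (0.34) and Ppp5c (0.18).

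The 2 called falls among the partners were Fgf1 and Siah1a. Fgf1, released together with S100a13, fell by 0.59 ± 0.13 on the log2 scale (adjusted p = 0.0113). Siah1a, a ubiquitin ligase in a complex with the S100a6 partner CacyBP, fell by 0.20 ± 0.05 (adjusted p = 0.0192), and this call was lost without WT replicate 1 (adjusted p = 0.0641) or Srrm2+/- replicate 2 (0.0713). Cacybp itself had a log2 difference of -0.12 ± 0.04 (adjusted p = 0.0570), and Ager, the receptor RAGE that several S100 proteins bind, one of 0.81 ± 0.27 (adjusted p = 0.0550). The ryanodine receptor genes Ryr1 (0.49 ± 0.93) and Ryr2 (-0.19 ± 0.12), targets of S100a1, were not called, with adjusted p of 0.753 and 0.292.

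The list of galectin ligands and glycan enzymes held 23 genes, of which 22 were tested. Of these 8 (36.4%) were called, 5 higher and 3 lower, against 25.3% of all tested genes, with a median log2 difference of 0.0557. Nrp1, a co-receptor (2.25 ± 0.36, adjusted p = 0.00196) and the hyaluronan receptor Cd44 (2.00 ± 0.36, adjusted p = 0.00384) rose from under 0.4 CPM in each WT library. Their WT counts were low, at 9, 15 and 11 for Nrp1 and at 21, 20 and 6 for Cd44. Each was under the filter's minimum count of 10 in a WT library, so both passed the filter through the Srrm2+/- libraries. Itgb1, the integrin β1 subunit, rose from 236.2 ± 2.90 to 347.9 ± 7.79 CPM, a log2 difference of 0.56 ± 0.04 (adjusted p = 1.39e-05). The 3 called falls were Lama1, Fn1 and Lamp2. Lama1 (laminin α1) fell by 0.64 ± 0.08 on the log2 scale (adjusted p = 0.000475), Fn1 (fibronectin) by 0.42 ± 0.07 (adjusted p = 0.00348) and Lamp2, of the lysosomal membrane, by 0.30 ± 0.05 (adjusted p = 0.00290). The lysosomal protein gene Lamp1 was not called (0.00 ± 0.05, adjusted p = 0.968).

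Of the enzymes that shape the glycans, St6gal1, which caps galactose with sialic acid, rose by 0.55 ± 0.14 (adjusted p = 0.0170), a call lost without WT replicate 3 (adjusted p = 0.0510) or Srrm2+/- replicate 2 (0.0603). Mgat5, which makes the branched N-glycans that galectin-3 binds, had a log2 difference of -0.17 ± 0.09 (adjusted p = 0.232). The other N-glycan enzyme genes Mgat1, Mgat2, Mgat3, Mgat4a and Mgat4b were not called. Pdcd6ip, which encodes the galectin-3 partner ALIX, rose by 0.28 ± 0.05 (adjusted p = 0.00543). Gemin4, which connects galectins with splicing complexes, was at 20.2 to 36.3 CPM in WT and 27.3 to 41.2 CPM in Srrm2+/- (log2 difference 0.14 ± 0.22, adjusted p = 0.708).

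**Figure D3:**
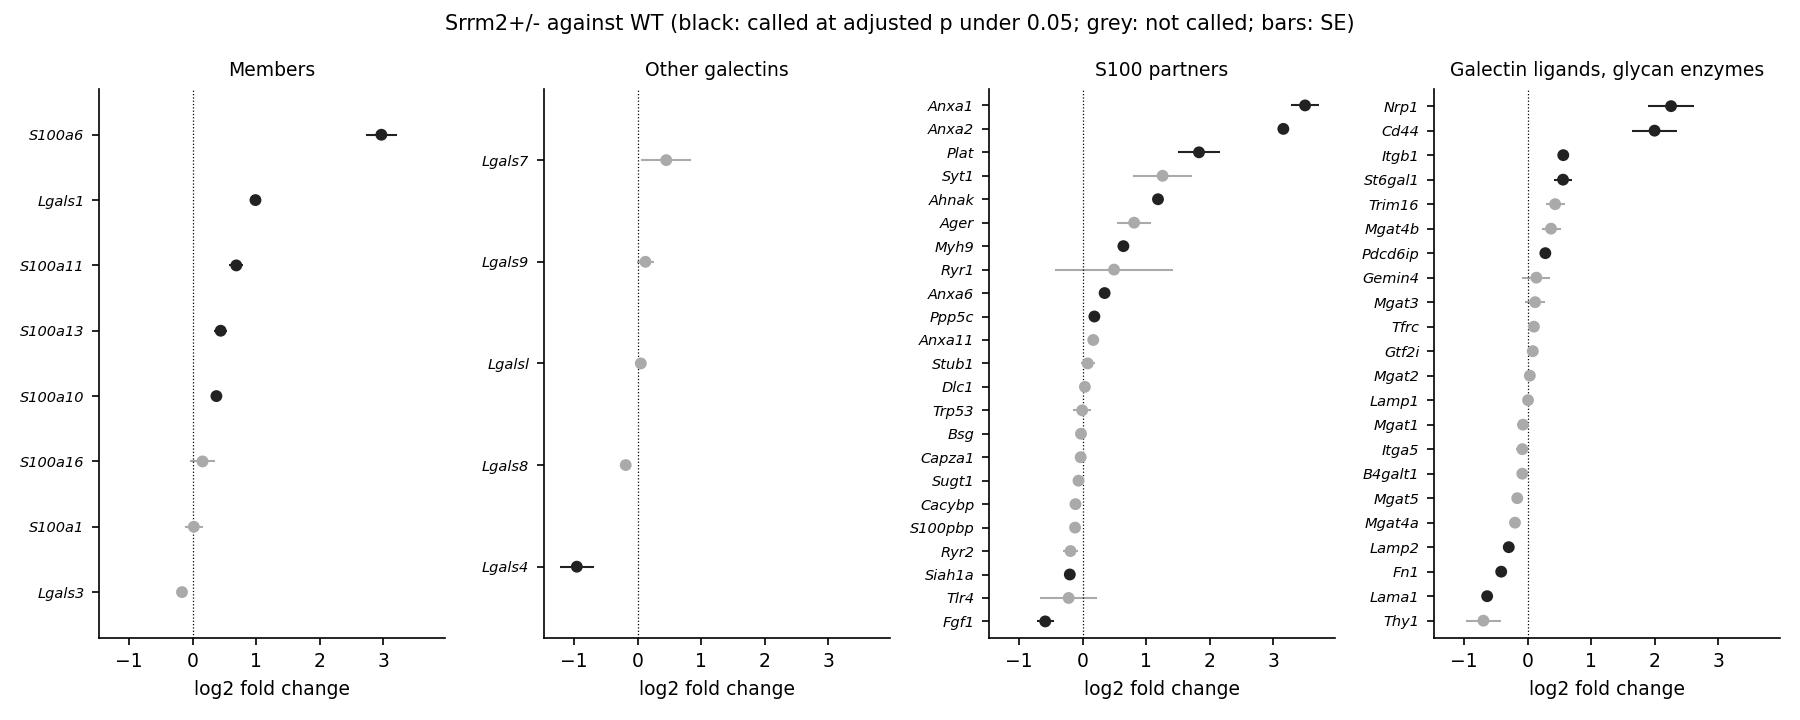
Log2 fold changes of Srrm2+/- against WT for the tested members, the other galectins, the S100 partners and the galectin ligands with glycan enzymes, with SE as bars, black for called genes and grey for the rest. S100a6 (2.97) stands apart from the other members, and Anxa1 (3.50), Anxa2 (3.16), Nrp1 (2.25) and Cd44 (2.00) lead the lists on the right.

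Genes near the members were examined next, to see whether the members moved with their surroundings. Of 114 annotated genes that start within 250 kb of the start of a member, 77 were in the table and 37 were tested. Of these 10 (27.0%) were called, 7 higher and 3 lower, against 25.3% of all tested genes, with a median log2 difference of 0.00613. In the S100 cluster 1 of 8 tested neighbours was called, and their median was -0.115. This was Ints3, an Integrator subunit gene (-0.25 ± 0.06, adjusted p = 0.0154), whose call was lost without WT replicate 3 (0.0574) or Srrm2+/- replicate 3 (0.0640). Around S100a11 and S100a10, 4 neighbours were tested and Tchh was called, which, as given above, passed the filter through Srrm2+/- alone.

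Around Lgals3, 2 of 8 tested neighbours were called, against 25.3% of all tested genes. Fbxo34 rose by 0.28 ± 0.07 (adjusted p = 0.0149), a call lost without Srrm2+/- replicate 1 (0.0516) or Srrm2+/- replicate 3 (0.0620), and Mapk1ip1l was the other (0.17). Around Lgals1, 6 of 17 tested neighbours were called, 4 higher and 2 lower, against 13.6% of all tested genes called higher and 11.7% lower. Card10, a scaffold of NF-κB signalling, rose by 1.49 ± 0.15 (adjusted p = 0.000153) and Cdc42ep1, an effector of the GTPase CDC42, by 1.28 ± 0.16 (adjusted p = 0.000524), beside 0.99 ± 0.05 for Lgals1. In WT, Card10 was at 1.39 ± 0.162 CPM and Cdc42ep1 at 0.880 ± 0.0347 CPM, against 60.3 ± 1.84 CPM for Lgals1. Triobp, which binds and bundles actin, rose by 0.39 ± 0.05 (adjusted p = 0.000744). Polr2f (-0.56 ± 0.11, adjusted p = 0.00600) and Gm10863 (-0.59 ± 0.12, adjusted p = 0.00764) fell. Nol12, whose start is 8.21 kb from that of Lgals1, had a log2 difference of 0.08 and was not called.

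**Figure D4:**
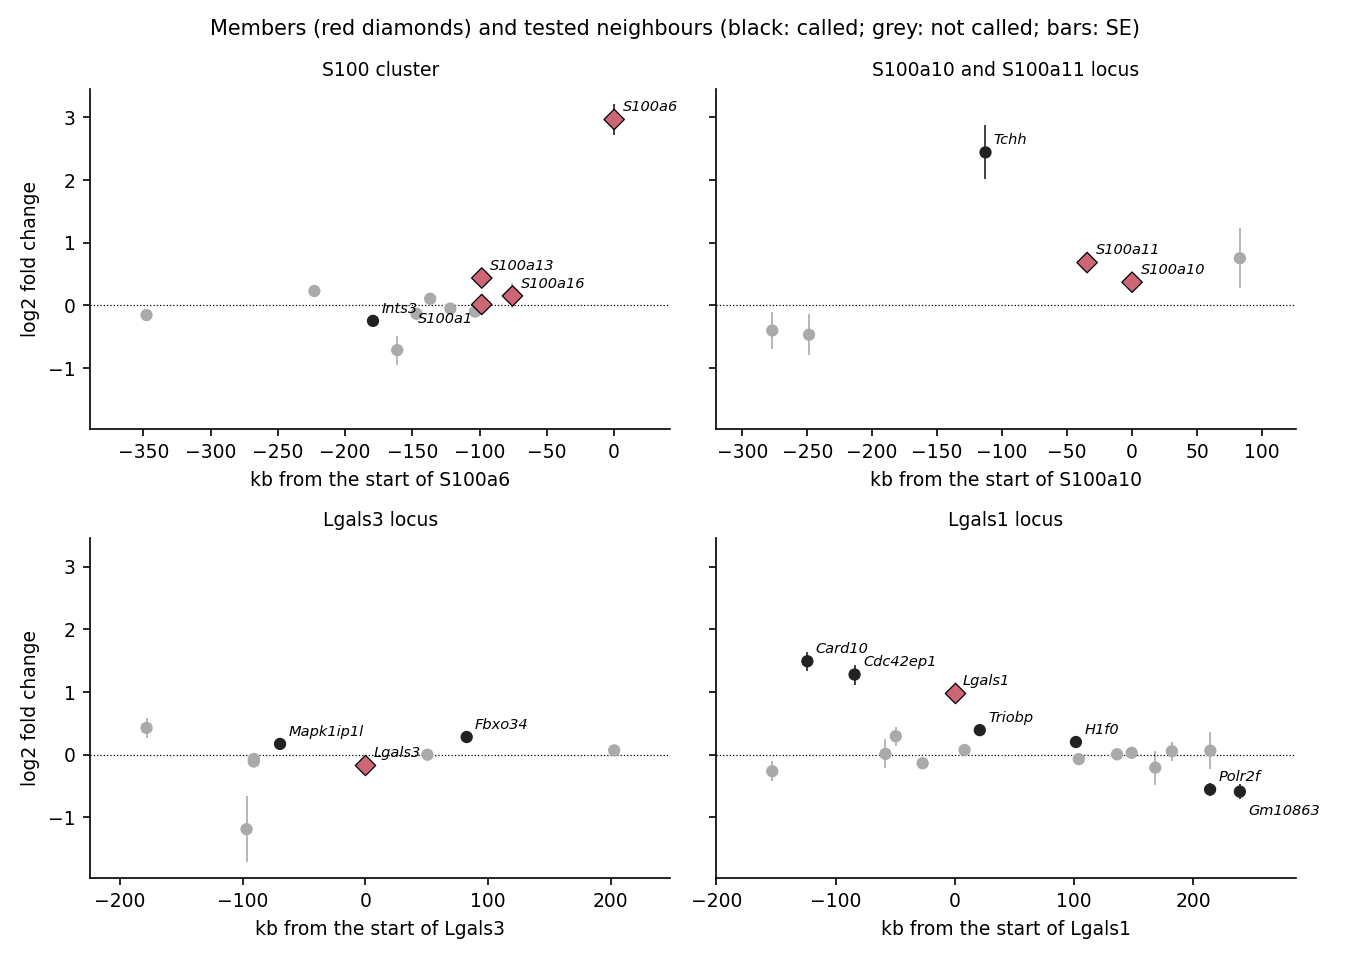
Log2 fold changes (with SE) of the tested members, as red diamonds, and of tested genes starting within 250 kb of a member, as circles (black where called), by distance in kb from the start of S100a6, S100a10, Lgals3 or Lgals1. In the S100 cluster S100a6 (2.97) stands far above its 8 tested neighbours, whereas at Lgals1 (0.99) Card10 (1.49) and Cdc42ep1 (1.28) lie at the top of the panel.

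The genes with the most similar profiles over the 6 libraries were sought for 4 members, as the smallest root mean square difference in log2 CPM relative to the WT mean. For S100a6 these were Lrrk1 (0.167), Fosl2 (0.200) and Fgfbp1 (0.203), whose log2 differences were 3.01, 3.06 and 2.88. For Lgals1 they were Cacna1b (0.0464), Tcaf1 (0.0477) and Inka2 (0.0628). S100a11 was closest to Sh3rf3 (0.0430), Kcnj9 (0.0460) and Arhgap8 (0.0480), and Lgals3 to Xndc1 (0.0219), Nckipsd (0.0226) and Apoc1 (0.0245). Unlike S100a11, Sh3rf3 (adjusted p = 0.0607) and Kcnj9 (adjusted p = 0.151) were not called, and Kcnj9 had only 12 to 29 counts in a library. The likeness is a description over 6 libraries, chosen as the closest of 18905 genes tested.

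Several marker lists of other cell types differed between the same groups. The counts of markers called below stand beside 13.6% of all tested genes called higher and 11.7% called lower. Smooth muscle markers summed to 13.99 to 18.9 CPM in WT and 125.8 to 146.1 CPM in Srrm2+/-, with 5 of 5 tested called higher, although the defining marker Myh11 was at 0 to 0.211 CPM. Fibroblast markers summed to 5.19 to 5.80 CPM and 11.4 to 15.2 CPM, with 6 of 8 tested called higher. Thy1 (log2 difference -0.70 ± 0.27, adjusted p = 0.0939) and Pdgfrb (0.23 ± 0.34, adjusted p = 0.685) were not called. Dcn had 0 counts in WT and only 4, 2 and 3 counts in Srrm2+/-, and Lum had at most 3 counts in any library. Trophectoderm markers summed to 71.6 to 75.9 CPM and 276.0 to 306.5 CPM, with 4 of 7 tested called higher and 1 lower. In Srrm2+/- most of this sum lay in Krt8 (8.73 ± 0.818 CPM in WT, 125.8 ± 8.08 CPM in Srrm2+/-) and Krt18 (9.21 ± 0.991 and 127.2 ± 7.25 CPM), keratins of simple epithelia. The trophectoderm factor gene Tfap2c was the 1 called lower, Elf5 and Gata3 were not called, and Cdx2 had 0 counts in every WT library and 5, 8 and 17 counts in Srrm2+/-. Primitive endoderm markers, at 2.39 to 2.70 CPM and 2.56 to 3.64 CPM, had 1 of 5 tested called higher. Macrophage markers summed to 11.8 to 15 CPM and 11.02 to 12.6 CPM with 0 of 3 tested called by edgeR, and 0 at an unadjusted p under 0.05 by edgeR, DESeq2 or limma voom. Of the defining macrophage markers, Adgre1 was at 0 in 5 of 6 libraries, and Lyz2 had 0 counts in every WT library and 1, 3 and 0 counts in Srrm2+/-. Most of the macrophage sum lay in Cd68 (9.94 to 14.3 CPM), with Ptprc at 0.450 to 0.762 CPM and Csf1r at 0.104 to 0.299 CPM over the 6 libraries. The part of these cell types in the values of the members was not tested.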

How the data were processed

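Total RNA libraries of 3 WT and 3 Srrm2+/- cultures were analysed, grouped by the sample titles. The authors thawed stocks frozen at different passages as biological replicates, prepared stranded total RNA libraries and quantified them by pseudo-alignment (Kallisto 0.46.1) against GENCODE mouse transcripts (mm10, which is GRCm38). They deposited estimated counts per gene, not normalized, in which reads that fit several transcripts are shared out among them. Any filter on the listed genes was not given in the sources used here.

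Estimated counts were rounded. Symbols and positions came from GENCODE on GRCm38, in a release older than that of the authors, and 42156 of 42450 identifiers matched. Genes past filterByExpr (minimum count 10, minimum total 15) were tested with edgeR 4.0.16 in R 4.3.3 (TMM, glmQLFit and glmQLFTest, two-sided, genotype as the sole term, Benjamini-Hochberg adjusted over 18905 genes, threshold 0.05). The SE was the log2 fold change divided by the square root of F. The floor of 3 counts covers counting error only.

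The members and the lists of related genes were chosen with earlier results of these data known. Named genes were Srrm2, the members, the tested genes of the other S100 and galectin lists, up to 5 called rises and 5 called falls of each partner list and of the neighbours, and the 3 nearest profiles of 4 members. Further genes named in the text were picked for their role or as the remaining calls, after their values were seen.

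Alternatives were DESeq2 1.42.0 or voom of limma 3.58.1 in place of edgeR, RLE or upper quartile scaling, 2 other filters, a table without mitochondrial, rRNA and short RNA genes, the replicate number as a block, and each library left out in turn. Same-numbered libraries did not deviate together (correlation -0.03 in each of 3 pairs). No 2 libraries agreed within sampling noise (lowest chi-square 14.7 per degree of freedom). Splicing, proteins and single cells were not analysed here.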

Additional observations from a re-analysis of the deposited data

How the results depend on the processing

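Over 14 alternatives the number of members called was 5 or 6, of S100 partners 8 to 11, of galectin ligand and glycan genes 7 to 9 and of neighbours 7 to 12, while all genes called ranged from 3515 to 4796. None of these counts moved by over 1.5 times. Another scaling moved the median of all genes by little (0.00226 with upper quartile, -0.00397 with RLE).

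The count of other galectins, 1 in the fit reported, was 0 with a filter of 1 CPM in every library of a group, where Lgals4 was not among the 3 genes tested (edgeR, 0 at an unadjusted p under 0.05), and ranged from 0 to 1 with a library left out. In the 4 fits with 0 calls, 1 or 2 genes had an unadjusted p under 0.05. With a library left out, the log2 fold change of S100a1 lay between -0.0779 and 0.138 and was negative without WT replicate 1 (-0.0779), Srrm2+/- replicate 1 (-0.0661) or Srrm2+/- replicate 2 (-0.0299). That of Lgals9 lay between -0.00889 (without Srrm2+/- replicate 3) and 0.196. That of Lgalsl lay between -0.0156 (without Srrm2+/- replicate 1) and 0.104, with -0.00791 without WT replicate 2. For these galectins and S100a1 the cause was not tested.

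With the replicate block, 5 members, 1 other galectin, 9 S100 partners, 9 galectin ligand and glycan genes and 10 neighbours were called. Over all genes 4166 of 18905 tested were called in that fit. The replicate numbers do not pair the samples, and no call of a named gene changed with the block.

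Depth limits S100a4 (0 counts in WT), the other S100 genes and the WT level of S100a6. With a filter of 1 count over all libraries, 9 members were tested and 6 called. The added one was S100a4, higher in Srrm2+/-, which entered that fit through its Srrm2+/- counts alone, so nothing is read from its call. In that fit 4581 of all 30080 genes tested were called. Under that filter 8 other S100 genes were tested by edgeR and 0 were called, 0 at an unadjusted p under 0.05. Without Srrm2+/- replicate 3, 1 other S100 gene was tested and 0 were called, 1 at an unadjusted p under 0.05. With 3 libraries a group and 1 Srrm2+/- clone, the p-values set the group difference against the spread between cultures of these lines. They do not speak to other clones.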
